A study of Mus musculus with 9 samples.

Results

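Cd4, Cd8a and Cd8b1 encode the T cell coreceptors, and they were examined with 7 genes of thymic selection and lineage choice, Zbtb7b, Runx3, Tox, Themis, Cd69, Cd24a and Cd1d1. They were chosen by name, with earlier results of these data known. A probe set was taken as theirs where the platform annotation gave it exactly 1 gene symbol. This gave 25 of the 45101 probe sets and 10 of the 18193 genes with a probe set of their own. Each gene is represented by its brightest probe set over the 9 arrays, and the other probe sets are given beside it. All 25 probe sets passed the filter on low values (the 40th percentile within an array) on 9 of 9 arrays, so all 10 genes were among the 13296 tested.

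RNA of sorted mouse cells was hybridised to Affymetrix arrays in 3 groups of 3 samples, NIC Tumor, Abnormal non-malignant and Control, from a study of T-ALL, a leukemia of immature T cells, and of overexpressed NOTCH1. The labels give the group name and a number only. Strain, age, genotype, the vector or promoter behind NOTCH1, the sorted population and the meaning of NIC are not given in the sources used here. Neither do they say whether samples of a group came from separate animals, so p-values measure the spread between these samples, which may be technical.

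CD4 and CD8 bind MHC class II and class I beside the T cell receptor. Thymocytes pass through a double-negative stage with neither coreceptor and a double-positive stage with both, and selection then leaves cells with one of them. The transcription factor ThPOK, encoded by Zbtb7b, holds cells to the CD4 lineage, and Runx3 silences Cd4 and supports Cd8 in the CD8 lineage. Notch signalling acts mainly before the double-positive stage.

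RefSeq (GRCm38.p6) gave windows of 250 bases before a gene start for 4 of the 10 genes, 7 windows in all. Of these, 3 are shown, those of Runx3 because its probe sets differed and that of Cd8a because it is a coreceptor with a window. Capitals mark the letters of a Runx motif (TGTGGT or ACCACA), an Rbpj motif of Notch target genes (TGGGAA or TTCCCA) and an E-box (CACCTG or CAGGTG), each searched on both strands, with no overlap between motifs in these windows.

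Runx3, upstream start, chr4:135120395-135120644, plus strand: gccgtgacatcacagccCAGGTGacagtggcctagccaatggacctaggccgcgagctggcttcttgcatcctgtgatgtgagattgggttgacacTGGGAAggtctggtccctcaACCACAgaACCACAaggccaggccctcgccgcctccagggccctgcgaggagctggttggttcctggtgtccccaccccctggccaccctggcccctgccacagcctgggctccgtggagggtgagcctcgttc

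Runx3, downstream start, chr4:135152295-135152544, plus strand: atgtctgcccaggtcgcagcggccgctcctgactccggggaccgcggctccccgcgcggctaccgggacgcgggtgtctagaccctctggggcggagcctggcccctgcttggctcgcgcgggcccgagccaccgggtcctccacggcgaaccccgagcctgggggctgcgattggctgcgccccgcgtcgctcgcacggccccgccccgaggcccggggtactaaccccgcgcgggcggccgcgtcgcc

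Cd8a, chr6:71373177-71373426, plus strand: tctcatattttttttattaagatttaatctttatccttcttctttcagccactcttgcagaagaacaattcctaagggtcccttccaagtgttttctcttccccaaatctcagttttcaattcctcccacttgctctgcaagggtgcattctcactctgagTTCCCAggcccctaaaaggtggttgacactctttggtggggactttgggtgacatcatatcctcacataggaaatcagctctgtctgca

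The upstream Runx3 window held the Runx letters 134 and 126 bases before the start, the Rbpj letters at 154 bases and the E-box letters at 233 bases. The downstream Runx3 window held none of the 3 motifs, and the Cd8a window held the Rbpj letters 89 bases before the start. Among the windows not shown, 1 of Zbtb7b held the Runx letters at 89 bases. The other of Zbtb7b held the Rbpj letters at 196 and the E-box letters at 238 bases, and those of Themis held none. Of 32851 mouse windows of the same length, 14% held the Runx letters, 1.27% held them at least 2 times, 21.6% held the Rbpj letters and 17.2% the E-box letters. These matches describe letters only, and the files do not say which start each Runx3 probe set reads.

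The median log2 value of an array was 5.67 to 5.77, and precision is limited by having 9 arrays. Cd3e, a defining T lineage gene, stood at 11.76 to 11.99 in tumors, 12.13 to 12.36 in non-malignant samples and 11.97 to 12.16 in controls (log2). Cd3g, another such gene, stood at 12.22, 11.78 and 11.49 in tumors, 12.14 to 12.27 in non-malignant samples and 12.10 to 12.39 in controls. Cd247 was not level, at 10.72, 9.52 and 9.16 in tumors, 11.52 to 11.57 in non-malignant samples and 11.72 to 12.18 in controls. Notch1 stood at 12.92, 9.0 and 10.81 in tumors, 12.88, 12.97 and 12.87 in non-malignant samples and 9.81, 10 and 10.34 in controls. Tumor 2 thus lay below every control for Notch1, while which part of the gene was introduced, and whether this probe set reads it, is not given. Tumor 3 had the narrowest spread of values and was the lowest of the 9 arrays in 6 of the 10 genes, against 26.4% of all genes tested. Tumor 1 differed less from the non-malignant arrays, with an SD over genes of 0.46 to 0.47, than from tumors 2 and 3, with 0.63 and 0.79. Non-malignant samples 2 and 3 differed least of any pair (0.156), and control 2 alone carried signal of the Y-linked gene Eif2s3y (8.69, elsewhere 3.11 to 4.18). Its Xist, a transcript of female cells, was the lowest at 10.27, against 12.38 to 13.30 elsewhere. Control 2 thus differed from controls 1 and 3 in sex-linked signal. It was the highest array in 4 of the 10 genes, against 11.7% of all genes tested.

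In tumors, Cd4, Cd8b1 and Themis were lower than in controls and Runx3 was higher, while Cd8a, Zbtb7b, Tox, Cd69, Cd24a and Cd1d1 did not pass. In non-malignant samples Runx3 was higher than in controls, and the mean differences of Cd4, Cd8a and Cd8b1 from controls were −0.43, −0.36 and −0.58. None of these 3 passed in the fit of all arrays at equal weight. A gene was called where the Benjamini-Hochberg adjusted p of the limma fit over all 13296 genes was under 0.05. In tumors against controls, 1 of the 10 genes was called higher and 3 lower, against 15.7% of all genes called, 8.48% higher and 7.19% lower. In non-malignant samples against controls 1 of 10 was called, higher, against 3.53% of all genes called and 2.87% called higher. In tumors against non-malignant samples 0 of 10 were called by limma, with 3 at an unadjusted p under 0.05, against 4.23% of all genes called, 1.53% higher and 2.7% lower. Downweighting arrays by limma's array weights called 7 there, 6 in tumors against controls and 4 in non-malignant samples against controls. Among all 13296 genes it called 5700, 4885 and 2421. The median log2 difference of the 10 genes was −0.56 in tumors against controls (0.06 over all genes), −0.36 in non-malignant samples against controls (0.01) and −0.45 in tumors against non-malignant samples (0.03). The 3 comparisons share arrays in pairs and are not independent.

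**Figure D1:**
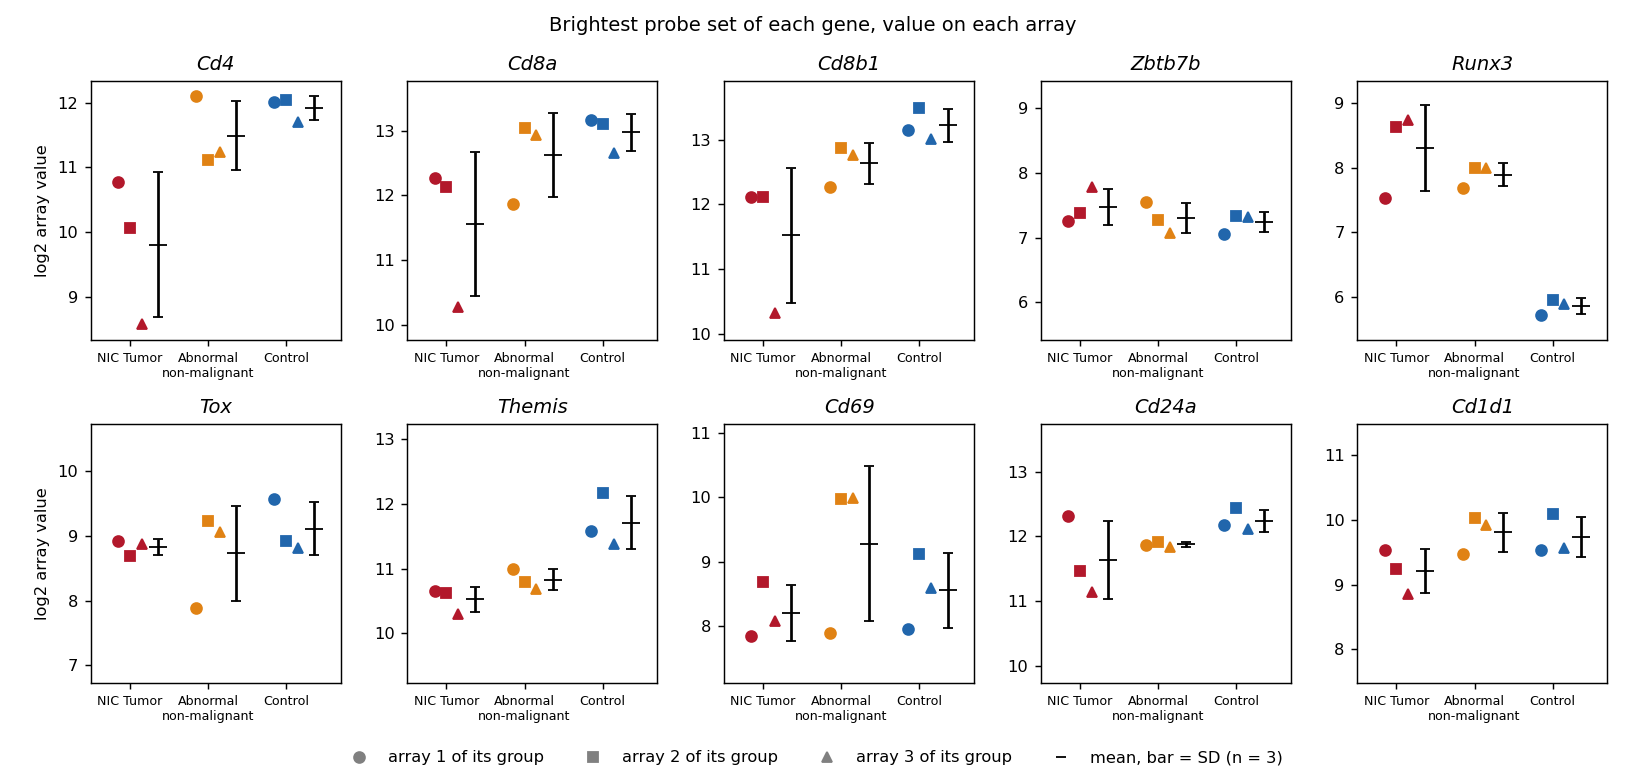
Log2 level of each gene's brightest probe set on each of the 9 arrays, 1 panel per gene, with NIC Tumor on the left, Abnormal non-malignant in the middle and Control on the right. Tumor 3 is low for Cd4, Cd8a and Cd8b1, and the 3 controls are the lowest arrays for Runx3, at 5.72 to 5.96.

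Cd4, read by probe set 1419696_at, stood at 10.77, 10.06 and 8.57 in tumors, 12.10, 11.12 and 11.24 in non-malignant samples and 12.01, 12.04 and 11.71 in controls (log2). Every tumor lay below every other array, tumor 3 by the most, while non-malignant samples and controls overlapped. The means were 9.80 ± 1.12 in tumors, 11.49 ± 0.54 in non-malignant samples and 11.92 ± 0.18 in controls (SD, n = 3 each). Tumors were 4.35-fold lower than controls (log2 difference −2.12 ± 0.48 SE, limma adjusted p = 0.0187). Against non-malignant samples the difference was −1.69 (adjusted p = 0.0769), and non-malignant samples differed from controls by −0.43 (adjusted p = 0.873). With array weights limma called the latter, narrowly (−0.67, adjusted p = 0.04997). The call in tumors against controls ended without control 1, 2 or 3 (adjusted p = 0.0589, 0.0668 and 0.0512), while the difference kept its direction at −2.07, −2.06 and −2.23. Without tumor 3 it was −1.51 and was still called (adjusted p = 0.0191). The difference of tumors from non-malignant samples was called without tumor 1 (−2.17, adjusted p = 0.00899) and with array weights (−1.22, adjusted p = 0.00214), and was −1.08 without tumor 3. In these bulk samples, fewer cells of a type and less RNA per cell cannot be told apart.

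A second Cd4 probe set, 1427779_a_at, stood at 8.64, 8.55 and 7.33 in tumors, 8.04, 10.07 and 10.10 in non-malignant samples and 10.05, 9.40 and 8.55 in controls. Its groups overlapped, and its difference between tumors and controls, −1.16, did not pass (limma adjusted p = 0.234). The Cd4 fall is therefore called from 1 of its 2 probe sets.

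Cd8a encodes the alpha chain, which pairs with itself or with the beta chain. Its probe set 1451673_at stood at 12.27, 12.13 and 10.27 in tumors, 11.87, 13.04 and 12.94 in non-malignant samples and 13.17, 13.11 and 12.65 in controls. Every tumor lay below every control, and non-malignant sample 1 lay among the tumors. The means were 11.56 ± 1.12, 12.62 ± 0.65 and 12.98 ± 0.28 in tumors, non-malignant samples and controls (SD, n = 3 each). The log2 difference of tumors from controls was −1.42 ± 0.50 (SE) and did not pass (adjusted p = 0.0855). Without tumor 1 it was −1.78 with an adjusted p of 0.0317, and with the mean of all Cd8a probe sets it was −1.47 with an adjusted p of 0.0493. Without tumor 3 it shrank to −0.77, and with array weights it was −0.95 with an adjusted p of 0.0310. Tumors differed from non-malignant samples by −1.06 (limma adjusted p = 0.212), and by −0.89 with array weights (adjusted p = 0.0190).

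All 5 Cd8a probe sets were lower in tumors than in controls with no overlap, by −1.79 to −1.13, and 3 of them passed when all probe sets were tested. Probe set 1425335_at stood at 12.03, 11.70 and 9.93 in tumors, 12.63, 12.56 and 12.57 in non-malignant samples and 12.91, 13.10 and 12.78 in controls (tumors against controls −1.71, limma adjusted p = 0.0357). Here non-malignant sample 1 stood with the other non-malignant samples, so its low value was seen for 1451673_at and not for this probe set. Probe set 1444078_at stood at 12.07, 11.74 and 9.22 in tumors, 12.09, 12.05 and 11.90 in non-malignant samples and 12.30, 12.46 and 12.18 in controls. The 2 dimmer probe sets, 1440811_x_at and 1440164_x_at, were lowest in tumor 3 too, at 6.63 and 7.40, and at 9.62 to 10.02 and 9.11 to 9.53 in controls.

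Cd8b1 encodes the beta chain. It stood at 12.12, 12.12 and 10.32 in tumors, 12.27, 12.87 and 12.77 in non-malignant samples and 13.16, 13.50 and 13.01 in controls. The groups did not overlap in any pair, with tumors lowest and controls highest. The means were 11.52 ± 1.04 in tumors, 12.64 ± 0.32 in non-malignant samples and 13.22 ± 0.25 in controls (SD, n = 3 each). Tumors were 3.26-fold lower than controls (log2 difference −1.70 ± 0.42 SE, limma adjusted p = 0.0260). Non-malignant samples differed from controls by −0.58 (adjusted p = 0.713) and tumors from non-malignant samples by −1.12 (adjusted p = 0.141). As for Cd4, the call in tumors against controls ended without control 1, 2 or 3 (adjusted p = 0.0677, 0.0947 and 0.0619). Without tumor 3 the difference was −1.10 and passed (adjusted p = 0.0117). The difference of tumors from non-malignant samples was −0.52 without tumor 3, and it was called without tumor 1 (−1.42, adjusted p = 0.0459) and with array weights (−0.78, adjusted p = 0.0110).

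**Figure D2:**
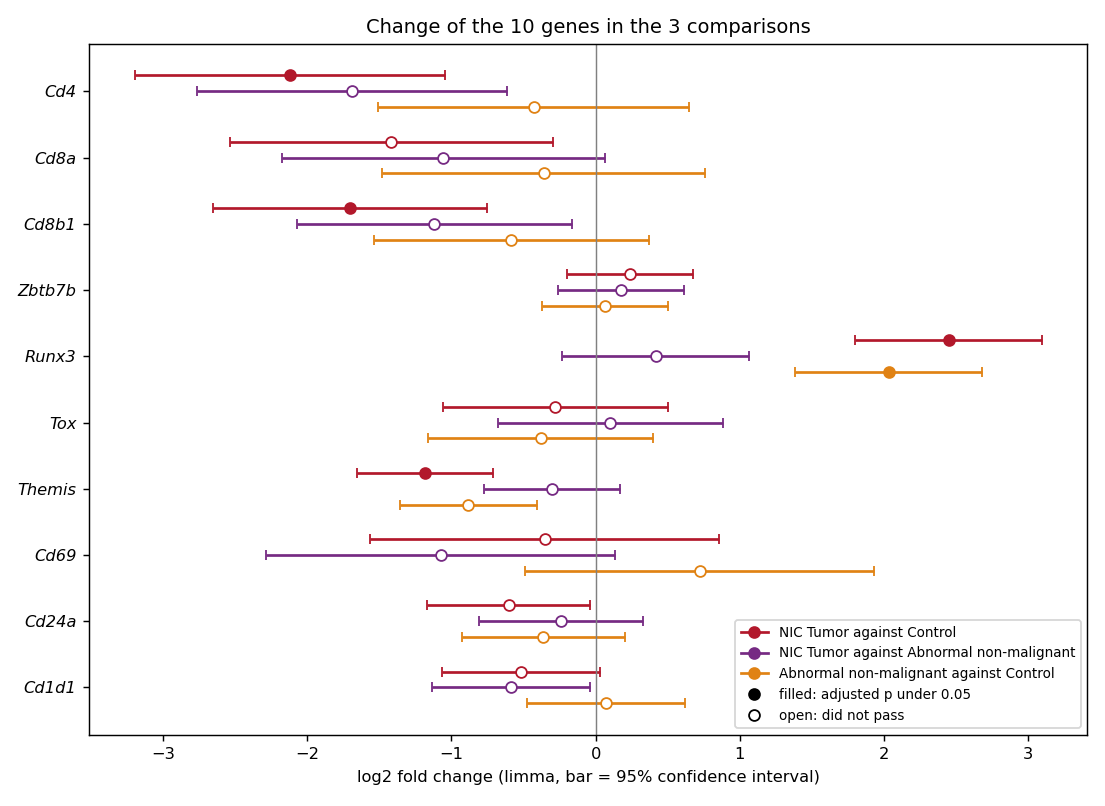
Log2 difference of each gene with its 95% confidence interval from the limma fit, for tumors against controls, tumors against non-malignant samples and non-malignant samples against controls, with filled points at an adjusted p under 0.05. Runx3 lies right of 0 in both comparisons with controls, and Cd4, Cd8b1 and Themis lie left of 0 in tumors against controls.

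Differences on the same array describe how the brightest probe sets of 2 genes moved relative to each other. Probe sets of 1 gene moved unequally too. In tumors against controls those of Cd4 changed by −2.12 and −1.16 and those of Cd8a by −1.79 to −1.13. The values below therefore cannot decide whether the RNA of 2 genes changed by unequal amounts. Cd4 minus Cd8a lay between −2.07 and −1.51 in tumors and between −1.15 and −0.95 in controls, a difference of −0.70 with no overlap (exact permutation p = 0.1, two-sided, the smallest that 3 against 3 can give). With the mean of each gene's probe sets this difference was −0.17 (exact permutation p = 0.6). In non-malignant samples Cd4 minus Cd8a ran from −1.91 to 0.23, and its mean differed from controls by −0.07 (exact permutation p = 1). Cd8a minus Cd8b1 differed between tumors and controls by 0.29 (exact permutation p = 0.3) and between non-malignant samples and controls by 0.22 (p = 0.4, exact), within the spread of the arrays. The levels of the 2 probe sets are not set against each other here, since a probe set's brightness depends on its sequence.

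Runx3, read by probe set 1440275_at, stood at 7.54, 8.63 and 8.74 in tumors, 7.69, 8.0 and 7.99 in non-malignant samples and 5.72, 5.96 and 5.90 in controls. All 6 tumors and non-malignant samples lay above every control, with tumor 1 the lowest of them. The means were 8.30 ± 0.66 in tumors, 7.89 ± 0.18 in non-malignant samples and 5.86 ± 0.13 in controls (SD, n = 3 each). Tumors were 5.45-fold higher than controls (log2 difference 2.45 ± 0.29 SE, limma adjusted p = 0.00117) and non-malignant samples 4.09-fold higher (2.03 ± 0.29, adjusted p = 0.00384). Tumors and non-malignant samples overlapped, with a difference of 0.42 (adjusted p = 0.375). Without tumor 1 this difference was 0.80 and was called (adjusted p = 0.0106), as it was with array weights (0.57, adjusted p = 0.0156), and without tumor 2 or 3 it was 0.25 or 0.20. The rise in tumors was called in 23 of 23 other settings. The rise in non-malignant samples was not called when the probe sets were averaged (1.005, adjusted p = 0.0806).

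The second Runx3 probe set, 1421467_at, gave another pattern. It stood at 7.16, 8.05 and 8.37 in tumors, 6.91, 6.86 and 6.91 in non-malignant samples and 7.02, 6.84 and 6.88 in controls. Tumors lay above all other arrays (0.94 against controls, limma adjusted p = 0.0532, and 0.96 against non-malignant samples, adjusted p = 0.0970), and non-malignant samples overlapped with controls (−0.02). The difference between both Runx3 probe sets on the same array was 2.05 higher in non-malignant samples than in controls and 1.5 higher in tumors than in controls, each with no overlap. It was 0.55 lower on the log2 scale in tumors than in non-malignant samples (difference −0.55). Each of these 3 had an exact permutation p of 0.1, the smallest possible, and this test was added after the values were seen. The rise of Runx3 in non-malignant samples thus rests on 1440275_at alone.

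**Figure D3:**
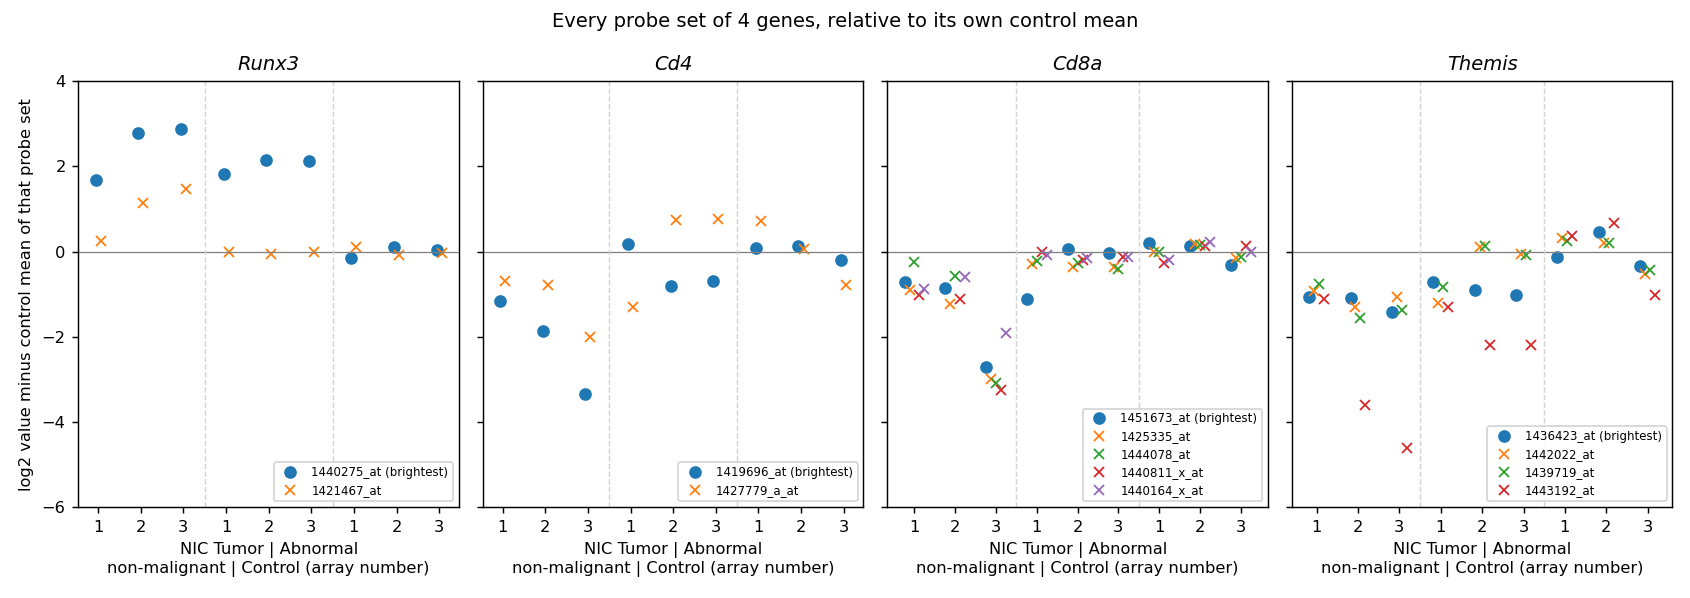
Every probe set of Runx3, Cd4, Cd8a and Themis on each array, as log2 value minus the control mean of the same probe set, with NIC Tumor left, Abnormal non-malignant in the middle and Control right, and filled circles for the brightest probe set. The Runx3 probe sets part in the non-malignant samples, at about 2 and 0, and all 5 Cd8a probe sets drop together in tumor 3.

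Zbtb7b stood at 7.26, 7.39 and 7.79 in tumors, 7.55, 7.28 and 7.08 in non-malignant samples and 7.06, 7.34 and 7.32 in controls. The groups overlapped, and no comparison passed (tumors against controls 0.24, 95% interval −0.20 to 0.68, limma adjusted p = 0.417). Its dimmer probe set, 1420663_at, stayed between 6.45 and 6.95 on all arrays. The within-array difference of Zbtb7b minus Runx3 ran from −1.24 to −0.28 in tumors, −0.91 to −0.14 in non-malignant samples and 1.34 to 1.43 in controls. It was −2.21 in tumors and −1.97 in non-malignant samples relative to controls, with no overlap (each exact permutation p = 0.1, the smallest possible). With the mean of each gene's probe sets the second of these was −0.98.

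Tox encodes an HMG-box factor needed for CD4 lineage development. Its probe set 1425483_at stood at 8.93, 8.69 and 8.88 in tumors, 7.88, 9.24 and 9.07 in non-malignant samples and 9.58, 8.93 and 8.82 in controls. The groups overlapped, and tumors differed from controls by −0.28 (95% interval −1.06 to 0.50, limma adjusted p = 0.605). A dimmer probe set, 1425484_at, lay lower in every tumor (8.30, 7.60 and 7.08) than in every control (8.65, 8.35 and 8.72), by −0.91 (adjusted p = 0.0918). The remaining probe set, 1442039_at, differed by −0.60 with overlap.

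Themis encodes a protein of T cell receptor signalling that positive selection requires. It stood at 10.65, 10.63 and 10.30 in tumors, 11, 10.80 and 10.69 in non-malignant samples and 11.58, 12.17 and 11.38 in controls. The groups did not overlap in any pair, with tumors lowest. The means were 10.53 ± 0.20 in tumors, 10.83 ± 0.16 in non-malignant samples and 11.71 ± 0.41 in controls (SD, n = 3 each). Tumors were 2.27-fold lower than controls (−1.19 ± 0.21 SE, limma adjusted p = 0.00777), a call kept in 23 of 23 other settings. Non-malignant samples differed from controls by −0.88 (adjusted p = 0.0556), which passed in 8 of 23 other settings. Leaving out tumor 1 or tumor 3 was among these 8 (adjusted p = 0.0495 and 0.0420). Tumors differed from non-malignant samples by −0.30, which did not pass (limma adjusted p = 0.375). All 4 Themis probe sets were lower in tumors than in controls with no overlap, by −3.12 to −1.10, and 3 passed when all probe sets were tested. In non-malignant samples against controls none of the 4 passed there. Probe sets 1442022_at and 1439719_at overlapped between these groups (−0.39 and −0.27), and 1443192_at did not (−1.90, limma adjusted p = 0.370). Probe set 1443192_at spanned the widest range, at 8.89, 6.40 and 5.39 in tumors, 8.70, 7.81 and 7.82 in non-malignant samples and 10.38, 10.67 and 8.98 in controls.

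Cd69, an early activation antigen that selected thymocytes carry, stood at 7.85, 8.69 and 8.08 in tumors, 7.89, 9.97 and 9.98 in non-malignant samples and 7.96, 9.12 and 8.59 in controls. The arrays numbered 1 were the lowest of each group, by the most in the non-malignant samples. Its groups overlapped, with differences of −0.35 in tumors against controls (95% interval −1.56 to 0.86) and 0.72 in non-malignant samples against controls (−0.49 to 1.93), and none of its 3 comparisons passed in the fit of all arrays at equal weight. Without non-malignant array 1 the second of these was 1.42, and without array 2 or 3 of that group it was 0.38 or 0.37. Without control 1 it was 0.43. With array weights limma called it (1.42, adjusted p = 0.0167), and called tumors against non-malignant samples as well (−1.28, adjusted p = 0.0216, against −1.07 with equal weights).

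Cd24a encodes heat-stable antigen, which immature thymocytes carry at high levels. It stood at 12.31, 11.46 and 11.14 in tumors, 11.87, 11.92 and 11.84 in non-malignant samples and 12.17, 12.44 and 12.12 in controls. Non-malignant samples lay below all controls (−0.36, limma adjusted p = 0.684), while tumors overlapped with both other groups. The difference of tumors from controls was −0.60 (adjusted p = 0.135), and without tumor 1 it was −0.94 with an adjusted p of 0.00229. With array weights limma called it (−0.69, adjusted p = 0.00464), and called tumors against non-malignant samples as well (−0.36, adjusted p = 0.0431). The 2 dimmer Cd24a probe sets differed between tumors and controls by −0.77 and −1.59, with overlap.

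Cd1d1 encodes CD1d, which presents lipids to NKT cells during their selection. It stood at 9.54, 9.24 and 8.86 in tumors, 9.47, 10.03 and 9.92 in non-malignant samples and 9.54, 10.10 and 9.57 in controls. The groups overlapped, and no comparison passed by limma in the fit of all arrays at equal weight (tumors against controls −0.52, 95% interval −1.06 to 0.03). With array weights limma called Cd1d1 lower in tumors than in non-malignant samples (−0.69, adjusted p = 0.00650). Its second probe set, 1449130_at, lay lower in every tumor (8.95, 8.16 and 7.26) than in every non-malignant sample (9.12, 9.42 and 9.35), by −1.17 (adjusted p = 0.144).

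Over the 10 genes, 1 lay above and 4 below with no overlap in tumors against controls, 1 above and 3 below in non-malignant samples against controls, and 0 above and 3 below in tumors against non-malignant samples. Among all genes tested, 32.5% did not overlap in tumors against controls (18.2% above, 14.3% below). The shares were 26.1% in non-malignant samples against controls (17% above, 9.15% below) and 27.1% in tumors against non-malignant samples (12.3% above, 14.8% below). The spread within groups was wide for these genes, with a median SD of 0.52 in tumors, 0.31 in non-malignant samples and 0.27 in controls, against 0.30, 0.14 and 0.17 over all genes.

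Of 14 tested other regulators of coreceptor genes and of lineage choice, 4 were called lower, 1 was called higher and 9 did not pass in tumors against controls, with a median difference of −0.49 (0.06 over all genes). The share of all genes called was 15.7% there, 3.53% in non-malignant samples against controls and 4.23% in tumors against non-malignant samples. Like the 10 genes, this and the following lists were chosen with earlier results of these data known. Socs1, an inhibitor of cytokine signalling, fell by 1.5 on the log2 scale (limma adjusted p = 0.0112), and Bcl11b, a factor of T lineage commitment, stood at 11.60, 10.61 and 9.80 in tumors and 11.96, 12.42 and 12.68 in controls (−1.68, adjusted p = 0.0178). Satb1, a chromatin organiser of thymocytes, changed by −1.55 (adjusted p = 0.0209). The other calls, picked out after their values were seen, were Gata3 (−1.28) and Lef1 (0.82). In non-malignant samples against controls 0 of 14 were called by limma, with 1 at an unadjusted p under 0.05 and 4 called with array weights. The count in tumors moved by over 1.5 times without tumor 2 or any 1 control, within 1 to 7.

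Among 13 tested genes of T cell receptor signalling, 4 fell and 1 rose in tumors against controls (median −0.42), against 15.7% of all genes called. Rasgrp1, which activates Ras behind the receptor, stood at 9.44, 9.34 and 8.35 in tumors, 10.74, 10.50 and 10.41 in non-malignant samples and 11.13, 11.68 and 11.19 in controls. It fell by 2.29 against controls on the log2 scale (limma adjusted p = 0.00147) and by 1.51 against non-malignant samples (adjusted p = 0.0269). Cd247, the zeta chain of the receptor, changed by −2.09 against controls (adjusted p = 0.00489). The kinase gene Fyn ran the other way, at 12.21, 12.61 and 12.30 in tumors and 10.84, 10.20 and 10.06 in controls (2.01, adjusted p = 0.00102). Itpkb (−1.47) and Lat (−0.89), picked out after their values were seen, were the other 2 that fell. In non-malignant samples against controls Zap70, a kinase recruited to the receptor, was the 1 call (0.64, adjusted p = 0.0394), against 3.53% of all genes called. The count in tumors against controls moved by over 1.5 times without tumor 1, control 1 or control 3, within 3 to 8. In tumors against non-malignant samples 1 of the 13 was called higher and 3 lower, against 4.23% of all genes called. That count of 4 ran from 0 to 10 and moved by over 1.5 times whichever array was left out. The single call of Zap70 is 1 of a count that ran from 0 to 2 and moved without tumor 1, tumor 3, control 2, control 3 or any 1 non-malignant array.

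Genes that selection induces gave 1 rise and 1 fall among 15 tested in tumors against controls (median −0.10), where 15.7% of all genes were called. They gave 3 rises in non-malignant samples against controls (median 0.15), where 3.53% of all genes were called. Tox2, a relative of Tox, stood at 10.40, 11.29 and 10.67 in tumors, 10.33, 10.22 and 10.24 in non-malignant samples and 7.98, 8.42 and 8.57 in controls. It rose by 2.46 in tumors (limma adjusted p = 0.000517) and by 1.94 in non-malignant samples (adjusted p = 0.00200), while Tox itself did not pass. Cd5, an inhibitory receptor whose level follows receptor signal strength, fell by 1.73 on the log2 scale in tumors (adjusted p = 0.0102). Cd2, an adhesion receptor, and Nab2, a corepressor of Egr factors, rose in non-malignant samples by 1.42 and 1.23 (adjusted p = 0.00720 and 0.0320). The count in tumors reached up to 8 and moved by over 1.5 times without tumor 1 or tumor 2.

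Of 10 tested genes of the double-positive stage, 6 fell and 1 rose in tumors against controls, with a median of −1.96. The share of all genes called was 15.7% there, 4.23% in tumors against non-malignant samples and 3.53% in non-malignant samples against controls. Rag2, needed for receptor gene rearrangement, stood at 7.11, 5.85 and 6.08 in tumors, 9.60, 9.31 and 9.28 in non-malignant samples and 9.28, 10.20 and 9.38 in controls (tumors against controls −3.27, limma adjusted p = 0.000742). Arpp21 changed by −1.95 (adjusted p = 0.00147) and Tctex1d1 by −3.25 (adjusted p = 0.00554). In tumors against non-malignant samples Rag2, Tctex1d1 and Rag1 fell, with log2 differences of −3.05, −3.82 and −3.71, and this count of 3 ran from 1 to 7, moving without tumor 1 or non-malignant array 3. In non-malignant samples against controls Slamf6, a receptor of the SLAM family, was the 1 call (1.93, adjusted p = 0.0181), in a count that ran from 0 to 3. That count moved without any 1 tumor, non-malignant array 2 or 3, or control 1 or 3.

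Of 12 tested genes of the double-negative stage, 5 rose, 0 fell and 7 did not pass in tumors against controls (median 0.59), and 6 rose, 0 fell and 6 did not pass in non-malignant samples against controls (median 2.62). Among all genes, 8.48% were called higher in tumors and 2.87% in non-malignant samples, each against controls, and 2.7% lower in tumors against non-malignant samples. The list holds Notch target genes, and its leading members Il2ra, Dtx1 and Hes1 rose by 5.61, 4.75 and 3.31 in tumors (limma adjusted p of 0.000673 or lower each) and by 5.05, 5.17 and 3.81 in non-malignant samples. Ptcra, the pre-T cell receptor alpha chain, fell in tumors against non-malignant samples (log2 difference −3.84, adjusted p = 0.0336), at 10.30, 7.39 and 6.39 in tumors and 12.19, 11.75 and 11.65 in non-malignant samples. That single call was lost or joined by others, within 0 to 5, without any 1 tumor, non-malignant array 2 or 3, or control 1 or 3.

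Of 8 tested genes of mature thymocytes, 5 rose, 1 fell and 2 did not pass in tumors against controls (median 1.28), and 6 rose, 0 fell and 2 did not pass in non-malignant samples against controls (median 1.72). Among all genes, 8.48% were called higher in tumors and 2.87% in non-malignant samples, each against controls. Gimap4, a GTPase of lymphocytes, stood at 10.37, 11 and 11.17 in tumors, 9.64, 10.13 and 10 in non-malignant samples and 7.62, 7.78 and 7.43 in controls (limma adjusted p = 0.000138 and 0.000650 against controls). S1pr1, the receptor for thymic exit, rose by 2.84 in tumors (adjusted p = 0.00127), and Itgb7, an integrin chain, by 1.89 in non-malignant samples (adjusted p = 0.00107). The count in tumors was 6 whichever array was left out, and that in non-malignant samples ran from 4 to 6.

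**Figure D4:**
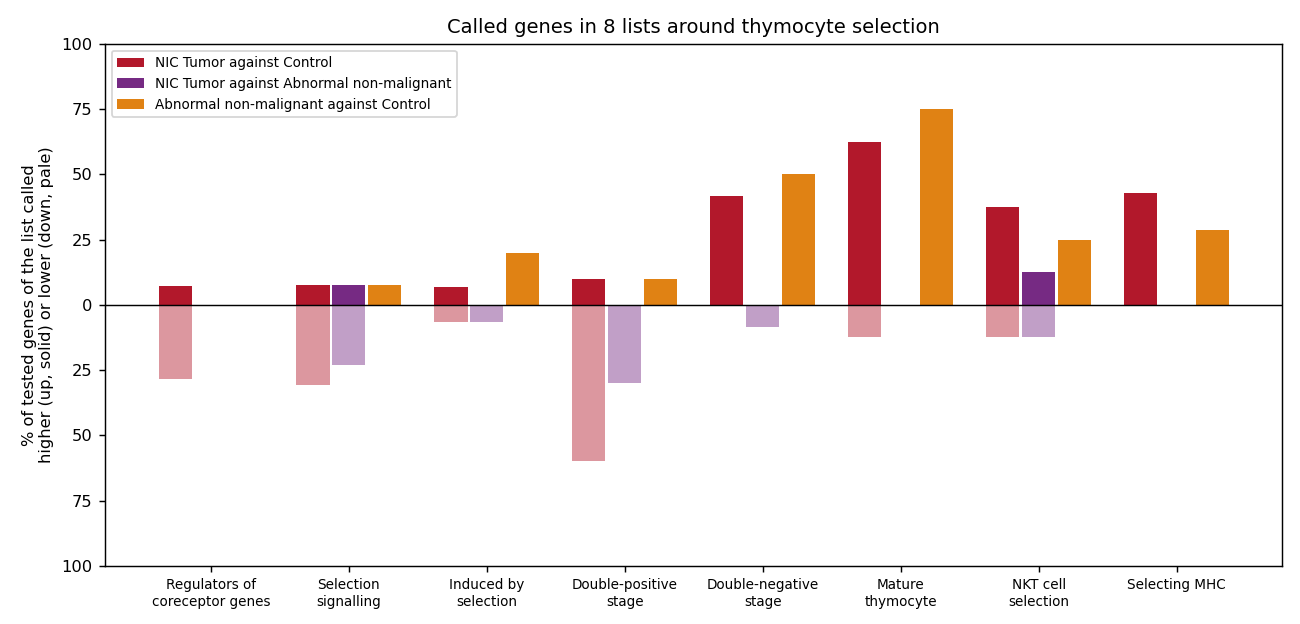
Percent of the tested genes of each of 8 lists called higher (solid bars, up) and lower (pale bars, down) in tumors against controls, tumors against non-malignant samples and non-malignant samples against controls. Double-positive genes reach farthest down in tumors against controls, with 6 of 10, and most called double-negative and mature thymocyte genes lie on the upper side.

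Some markers of other cell types were called too. The share of all genes called was 15.7% in tumors and 3.53% in non-malignant samples, each against controls, and 4.23% in tumors against non-malignant samples. Of 6 tested NK cell markers, Prf1, Nkg7 and Gzmb rose in non-malignant samples against controls by 3.80, 1.30 and 1.08, and Prf1 rose in tumors by 2.28. The summed linear level of all 8 NK cell markers with a probe set, tested or not, was 529 to 710 in tumors, 1198 to 1256 in non-malignant samples and 407 to 435 in controls. Of these, Klrd1 and Tbx21 stayed at or below the array's 40th percentile on all 9 arrays. The 3 called markers were all lower in tumors than in non-malignant samples (Nkg7 by −1.64, Prf1 by −1.52 and Gzmb by −0.86), a count that ran from 1 to 3 and moved without tumor 2, control 1 or any 1 non-malignant array. Runx3 is expressed in NK and cytotoxic cells too, and the part of these cells in its rise was not tested. Of 13 tested myeloid markers, Ctss rose in tumors and in non-malignant samples by 2.51 and 2.34. The sums over all 15 myeloid markers with a probe set were 1071 to 2718 in tumors, 1608 to 1787 in non-malignant samples and 864 to 963 in controls. The myeloid count in tumors became 7 without tumor 1, and that in non-malignant samples ran from 0 to 3, moving without tumor 1 or 2, non-malignant array 2 or 3, or control 3. Of the 13 tested, 5 had an unadjusted limma p under 0.05 in tumors against controls and 4 in non-malignant samples against controls. Their median differences were 0.60 and 0.33 (0.06 and 0.01 over all genes), and the count in tumors reached 9 in other settings. Lyz2, a defining myeloid gene, stood at 6.95 to 7.42 in tumors, 6.80 to 7.13 in non-malignant samples and 6.78 to 7.11 in controls.

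Of 8 tested B cell markers, Vpreb1 and Cd79b fell in tumors against controls (−0.68 and −1.38), and Cd22 rose in non-malignant samples (1.99). Among all genes, 15.7% were called in the first comparison and 3.53% in the second. The sums over all 9 B cell markers with a probe set were 540 to 802 in tumors, 881 to 959 in non-malignant samples and 596 to 838 in controls. The 2 calls in tumors fell to 0 or 1 whichever array was left out. None of 5 dendritic, 4 erythroid and 5 thymic stroma markers was called in any comparison in the main limma fit, and Xcr1 and Hba-a1 stayed at or below that percentile on all arrays. With array weights 4 erythroid, 1 stroma and 0 dendritic markers were called in tumors against controls, and 2 erythroid markers were called without tumor 1. Erythroid markers were also called there with quantile normalization, median centring, a filter at the 60th percentile, without tumor 3 and with only arrays numbered 2 and 3. In tumors against non-malignant samples array weights called 4 erythroid and 2 stroma markers. Erythroid sums, over all 6 markers with a probe set, were 498 to 1598 in tumors, 554 to 633 in non-malignant samples and 367 to 399 in controls. Of the 4 tested, 3 had an unadjusted p under 0.05 in tumors against controls and 2 in non-malignant samples against controls. No dendritic or stroma marker reached an unadjusted p of 0.05 in any comparison. Dendritic sums (6 markers with a probe set) were 418 to 511, 429 to 497 and 436 to 451, and stroma sums (9 markers with a probe set) 594 to 1014, 641 to 697 and 666 to 772, in tumors, non-malignant samples and controls. The part of these cell types in the coreceptor results was not tested.

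The genes whose levels followed Cd4 most closely over the 9 arrays were Clasp1, Pptc7, Tut7, Sema4d and Usp34, with Pearson r of 0.99 each. For Cd8a they were Arf4, Selenok, Prpf39, Hnrnph2 and Cstf2, with r of 0.98 each, and Cd8b1 stood at rank 13 with r of 0.97. Cd4 and Cd8a had an r of 0.80 with each other. All 10 of these closest genes were lowest in tumor 3, as Cd4 and Cd8a were. For Runx3 they were Myl4 (0.99), Plpp1, Pomp, Gimap4 and Fbxw17 (0.98 each). Myl4 stood at 7.59, 9.10 and 9.44 in tumors, 8.25, 8.79 and 8.59 in non-malignant samples and 4.64, 4.61 and 4.66 in controls. In controls Myl4 and Plpp1 (4.64 to 4.90) lay below the 40th percentile of the array (5.18 to 5.22). Both thus passed the filter only through the other groups, and their r mostly describes a low control level. For Zbtb7b they were Mst1, Mcrip1, Dnase1l2, Cntnap4 and Mtx1, with r of 0.92 to 0.94 and the highest value in tumor 3 each time. Outside tumor 3, Mst1 (4.94 to 5.44) and Cntnap4 (5.05 to 5.39) lay near the 40th percentile of the arrays. These correlations are descriptions over 9 arrays that share 3 groups and the narrow spread of tumor 3.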

How the data were processed

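RNA of 9 samples was measured on Affymetrix mouse arrays, 3 per group. Per the labels' protocols, sorted cells gave RNA that was amplified to biotin-labelled cRNA. The deposited values are log2 expression values per probe set, normalized between arrays by the authors. Background correction, normalization and summarization are not given in the sources used here, and the log base was read from the values.

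Probe sets with exactly 1 annotated gene symbol were assigned to genes, and the one with the highest mean over the arrays stood for its gene. Genes whose value exceeded the array's 40th percentile in 3 or more samples were tested (13296 genes). Python 3.11.15 and pandas 2.3.3 prepared the tables, and limma 3.58.1 in R 4.3.3 fitted 1 mean per group to all 9 arrays with moderated variances that follow a trend (lmFit and eBayes, two-sided, adjusted p under 0.05). The script was tested on simulated data. Differences within an array were tested by exact permutation.

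The genes and the 14 lists (151 entries) were chosen with earlier results of these data known. Genes named are the 10 with every probe set, up to 3 called genes with the smallest adjusted p per list and comparison, the 5 with the highest Pearson r to Cd4, Cd8a, Zbtb7b and Runx3, and the 3 brightest and the called markers of other cells. Lck and other entries with no probe set of their own were not analysed here. In 23 other settings, normalization, filter, probe set choice, variance model, array weights, threshold, the groups fitted, a replicate block and left-out arrays were varied. The use of arrays 2 and 3 only and the test of differences between probe sets were added after seeing the data.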

Additional observations from a re-analysis of the deposited data

How the results depend on the processing

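Of 690 values of single genes over the 3 comparisons and 23 settings, 630 kept their direction and their side of the threshold, 30 passed only in the other setting, 11 lost their call and 19 changed direction. The number of the 10 genes called in non-malignant samples against controls, 1, became 2 with quantile normalization, median centring, a filter at the 60th percentile, only the 2 groups compared and a replicate block, 0 with the mean of the probe sets and 4 with array weights, and ran from 1 to 2 when 1 array was left out. In tumors against controls 4 became 2 at an adjusted p under 0.01 and with only the 2 groups compared, and ran from 2 (any 1 control) to 6 (without tumor 1). In tumors against non-malignant samples 0 became 7 with array weights and 3 with only arrays numbered 2 and 3, and ran from 0 to 4 (without tumor 1). Genes called among all tested were 469 in non-malignant samples against controls. This became 233 at 0.01, 2421 with array weights, 1119 with 2 groups and 206 with non-malignant arrays 2 and 3 averaged, and ran from 203 to 709 when 1 array was left out. In tumors against controls 2083 became 584 at 0.01, 4885 with array weights and 841 with 2 groups, and ran from 922 to 4119. In tumors against non-malignant samples 562 became 83 at 0.01, 5700 with array weights, 110 with 2 groups, 287 with the replicate block, 66 with the arrays averaged and 2005 with only arrays numbered 2 and 3, and ran from 57 to 3408. The cause of these moves was not tested.

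Directions changed only for differences that had not passed. In non-malignant samples against controls, with only arrays numbered 2 and 3, Cd8a was 0.11, Tox 0.28 and Zbtb7b −0.15. Zbtb7b was −0.022 with array weights, and Cd1d1 was −0.0039 with quantile normalization and −0.013 with arrays averaged. When 1 array was left out, Cd8a ran from −0.57 to 0.012, Zbtb7b from −0.059 to 0.18, Tox from −0.64 to 0.044 and Cd1d1 from −0.039 to 0.25. In tumors against controls Cd69 was 0.14 with array weights. In tumors against non-malignant samples Tox was −0.29 with the mean of the probe sets, −0.34 with array weights and −0.37 with only arrays numbered 2 and 3, and ran from −0.32 to 0.36, and Cd24a from −0.58 to 0.0091, when 1 array was left out. Cd4 minus Cd8a in non-malignant samples against controls was 0.069 with the mean of the probe sets and ran from −0.75 to 0.32. In tumors against non-malignant samples it ran from −1.02 to 0.048. Cd8a minus Cd8b1 there was −0.10 with the mean of the probe sets and ran from −0.13 to 0.16.

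Arrays of the same number are not stated to be paired. Their deviations from the group means correlated from −0.05 to 0.22 over 9 pairs, 3 of them above 0.1. Pairs of unlike number ran from −0.26 to 0.21. Deviations from a mean of 3 arrays are tied to each other, so these values cannot decide on a pairing. None was assumed in the main fit. With the replicate number as a block, 2 of the 10 genes were called in non-malignant samples against controls, 4 in tumors against controls and 0 in tumors against non-malignant samples, among 399, 1915 and 287 genes. With only 3 arrays a group, of which tumor 3 and non-malignant arrays 2 and 3 stand apart, moderate differences may go uncalled.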

Other observations

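H2-K1 and B2m, which encode a heavy chain and the light chain of MHC class I, on which CD8 cells are selected, were called higher than in controls in tumors and in non-malignant samples. Of 7 tested genes of MHC class I and II, 3 rose in tumors (H2-K1 by 1.51, H2-D1 by 1.19 and B2m by 1.13) and 2 rose in non-malignant samples (H2-K1 by 1.29 and B2m by 1.86), by limma at an adjusted p under 0.05. Among all genes, 8.48% were called higher in tumors and 2.87% in non-malignant samples, each against controls. H2-K1 stood at 11.82 to 11.92 in tumors, 11.53 to 11.74 in non-malignant samples and 10.31 to 10.51 in controls, with no overlap between controls and either group. The count in tumors ran from 1 to 4 and moved by over 1.5 times without control 1 or control 3. Against non-malignant samples 0 of 7 were called in tumors, with 1 at an unadjusted p under 0.05, 1 called without tumor 1 and up to 2 in other settings. The list's medians were 0.87 in tumors against controls and 0.70 in non-malignant samples against controls.

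Of 8 tested genes of NKT cell selection, 3 rose and 1 fell in tumors against controls and 2 rose in non-malignant samples. The shares of all genes called were 15.7% and 3.53%, and 4.23% in tumors against non-malignant samples. Slamf1, a receptor in this selection, stood at 8.26, 6.96 and 7.59 in tumors and 9.19, 10.14 and 9.38 in controls (−1.97, limma adjusted p = 0.00671), while Slamf6 rose by 1.32 in tumors and by 1.93 in non-malignant samples. Egr2 fell by 1.39 on the log2 scale in tumors against non-malignant samples (adjusted p = 0.0183). The count in tumors against controls ran from 2 to 4 and moved without control 1 or control 3, and that in non-malignant samples ran from 1 to 3 and moved without control 3 or non-malignant array 2 or 3. The 2 calls in tumors against non-malignant samples ran from 0 to 5 and moved without any 1 array except control 1.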
